A study of Mus musculus with 3 samples.

Results

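A group of 10 genes often studied in ageing was followed through kidney cells of old and young mice. Among them, 6 encode sirtuins (Sirt1, Sirt2, Sirt3, Sirt5, Sirt6 and Sirt7), 2 encode FOXO transcription factors (Foxo1 and Foxo3), and the others encode the insulin-like growth factor 1 receptor (Igf1r) and the kinase mTOR (Mtor). They were chosen by gene symbol and are 10 of the 33696 genes in the deposited tables. Each symbol matched 1 gene, and each gene had at least 30 counts over the 3 libraries in all cells kept.

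Sirtuins are enzymes that use NAD to remove acyl groups from proteins. SIRT1, SIRT6 and SIRT7 act mainly in the nucleus, SIRT2 mainly in the cytoplasm, and SIRT3 and SIRT5 mainly in mitochondria, which are dense in the proximal tubule. IGF1R is a receptor tyrosine kinase that signals through PI3K and AKT. AKT phosphorylates FOXO proteins, which keeps them out of the nucleus, and it relieves the brake on mTOR complex 1, which promotes protein synthesis and restrains autophagy. The activity of these proteins is set largely after transcription, so an mRNA level is not a measure of it.

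Kidneys of male mice were digested with collagenase II, strained and freed of red cells, and the cells were made into 3′ single-cell RNA libraries on the MobiCube platform. There was 1 library per group. The old D+Q library came from mice aged 20 months given D+Q, in senolytic studies the usual short form of dasatinib with quercetin, which the labels do not spell out. The old vehicle library came from mice aged 20 months given vehicle (treatment labelled control), and the young library from mice aged 3 to 4 months, also with treatment labelled control. The sources used here do not give the strain, the D+Q dose and schedule or the number of mice in each library, and no genetic change is named for any group. Since no group has a second library, no test between groups was possible. "Higher" and "lower" describe these 3 libraries, and every interval is a 95% interval that covers counting error only.

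The old D+Q, old vehicle and young libraries kept 7424, 5701 and 7734 cells with 19195023, 13122089 and 21688581 counts, and each pair of libraries shared 28 to 38 cell barcodes. Several measures set the old vehicle library apart. It was the shallowest, with a median of 1883 counts per barcode against 2299 in old D+Q and 2391 in young. Mitochondrially encoded genes gave 9.06% of counts in old D+Q, 6.83% in old vehicle and 9.09% in young cells, and the nuclear RNA Malat1 stood at 137696 CPM in old D+Q, 118926 CPM in old vehicle and 145317 CPM in young, where CPM is the count divided by the total of the cells summed, on a common scale. Proximal tubule-like cells were 67.5% of old D+Q, 67.3% of old vehicle and 62.3% of young cells kept. The 15 proximal tubule markers were all detected in that class in each library, and 15 of them in old D+Q, 14 in old vehicle and 15 in young were higher there than in the other cells. The level of a gene is given in CPM of summed counts and compared between libraries or classes, not between genes.

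Among the genes with over 300 counts in all, Igf1r and Mtor differed most between the libraries, and both were highest in old vehicle. Their promoters are shown because these are the genes that moved together. The sequences are the 250 bases before the annotated start in RefSeq on GRCm38.p6, read 5′ to 3′ on the plus strand, on which both genes lie, with GC boxes (GGGCGG on either strand) and CCAAT boxes (CCAAT on either strand) in capitals. Igf1r lies at chr7:67952007-67952256 and Mtor at chr4:148448332-148448581.
Igf1r: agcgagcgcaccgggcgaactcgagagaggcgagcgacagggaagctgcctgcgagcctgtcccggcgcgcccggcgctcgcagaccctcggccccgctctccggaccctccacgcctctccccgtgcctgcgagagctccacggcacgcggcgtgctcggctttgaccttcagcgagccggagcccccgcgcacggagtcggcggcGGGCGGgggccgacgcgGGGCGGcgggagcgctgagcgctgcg
Mtor: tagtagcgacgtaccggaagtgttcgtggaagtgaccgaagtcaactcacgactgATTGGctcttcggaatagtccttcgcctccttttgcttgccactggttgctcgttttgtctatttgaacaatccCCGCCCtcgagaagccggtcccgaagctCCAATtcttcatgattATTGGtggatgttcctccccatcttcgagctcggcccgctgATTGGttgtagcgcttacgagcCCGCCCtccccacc
The Igf1r window is 77.6% G and C, with 2 GC boxes and 0 CCAAT boxes, and the Mtor window is 54.4% G and C, with 2 GC boxes and 4 CCAAT boxes. All 10 genes matched the RefSeq table, with 12 entries. A GC box was found for 10 of the 10 genes, against 32.74% of the 32851 windows in the table, and a CCAAT box for 5 genes, against 33.85%. A gene was counted if any of its windows held the motif, while the shares here are per window. Sirt3 and Sirt6 each also have a window with 0 GC boxes. The forkhead motif TGTTTAC, bound by FOXO proteins, was searched on both strands and found for 0 of the 10 genes, against 3.17% of windows. The E-box CACGTG, which reads the same on both strands, was found for Sirt1 alone, against 6.02% of windows. A match says only that these letters are present.

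Igf1r (ENSMUSG00000005533) stood at 760 CPM in old D+Q, 966 CPM in old vehicle and 633 CPM in young cells, all cells kept. The counting intervals did not overlap, with the old D+Q library between the other 2. Old vehicle was 1.53-fold above young, a log2 ratio of 0.61 (0.57 to 0.64). Old D+Q over old vehicle gave −0.35 (−0.38 to −0.31) and old D+Q over young 0.26 (0.23 to 0.30).

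Mtor (ENSMUSG00000028991) stood at 206 CPM in old D+Q, 309 CPM in old vehicle and 190 CPM in young cells. Here the old D+Q library lay close to the young one and far below the vehicle library. Old vehicle was 1.63-fold above young, a log2 ratio of 0.70 (0.64 to 0.77), and old D+Q over old vehicle gave −0.59 (−0.65 to −0.52). The log2 ratio of old D+Q over young was 0.11 (0.05 to 0.18). Angptl7 lies on the opposite strand within Mtor and had 359 counts in the deposited tables against 13175 for Mtor; the sources used here do not say whether the counting used strand.

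Foxo3 (ENSMUSG00000048756), the FOXO factor tied to long life in human genetic studies, had the same order at a smaller size. It stood at 83.0 CPM in old D+Q, 94.6 CPM in old vehicle and 78.8 CPM in young cells. Old vehicle over young gave 0.26 (0.16 to 0.37) and old D+Q over old vehicle −0.19 (−0.30 to −0.08), while the interval of old D+Q over young reached 0 (0.07, −0.02 to 0.17). Foxo1 (ENSMUSG00000044167), which in liver drives genes of glucose production, was at 117, 121 and 117 CPM in the old D+Q, old vehicle and young libraries. None of its 3 ratios had an interval away from 0, and the widest of these intervals ran from −0.14 to 0.05, for old D+Q over old vehicle.

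Sirt3 (ENSMUSG00000025486), the main deacetylase of the mitochondrial matrix, was at 276 CPM in old D+Q, 345 CPM in old vehicle and 295 CPM in young cells. It was thus lowest in the D+Q library, with log2 ratios of −0.32 (−0.38 to −0.26) over old vehicle and −0.09 (−0.14 to −0.04) over young. Old vehicle over young gave 0.23 (0.17 to 0.28). Sirt5 (ENSMUSG00000054021), the mitochondrial enzyme that removes succinyl and malonyl groups, was at 21.0 CPM in old D+Q, 20.9 CPM in old vehicle and 23.0 CPM in young cells. All 3 of its intervals included 0, and the widest ran from −0.22 to 0.23, for old D+Q over old vehicle.

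Among the nuclear sirtuins, Sirt1 (ENSMUSG00000020063), whose substrates include p53 and FOXO proteins, was higher in both old libraries. It stood at 39.1 CPM in old D+Q, 41.3 CPM in old vehicle and 34.0 CPM in young cells. The ratios over young were 0.20 (0.05 to 0.35) for old D+Q and 0.28 (0.12 to 0.44) for old vehicle, and that of old D+Q over old vehicle was −0.08 (−0.24 to 0.08). Sirt7 (ENSMUSG00000025138), which acts at ribosomal RNA genes, went the other way, at 90.4 CPM in old D+Q, 88.9 CPM in old vehicle and 99.9 CPM in young cells. Its ratios over young were −0.14 (−0.23 to −0.05) for old D+Q and −0.17 (−0.27 to −0.07) for old vehicle. Mafg overlaps Sirt7 on the same strand and had 7782 counts against 5525, so how reads were divided between them bears on the Sirt7 values.

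Sirt6 (ENSMUSG00000034748), a chromatin deacetylase linked to DNA repair and lifespan in mice, was too sparse to place the libraries well. It had 27 counts in old D+Q, 34 in old vehicle and 41 in young cells, or 1.41, 2.59 and 1.89 CPM in old D+Q, old vehicle and young. The log2 ratio of old D+Q over old vehicle was −0.87, with an interval of −1.67 to −0.11. Sirt2 (ENSMUSG00000015149), a tubulin and histone deacetylase, was at 24.5 CPM in old D+Q, 23.6 CPM in old vehicle and 23.1 CPM in young cells, and its 3 intervals included 0. The widest ran from −0.16 to 0.26, for old D+Q over old vehicle, so a difference of over 1.5-fold lay outside it. Nfkbib lies opposite Sirt2, with 500 counts against 1399, and Psmd13 and Ric8a opposite Sirt3, with 2186 and 596 counts against 17610.

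**Figure D1:**
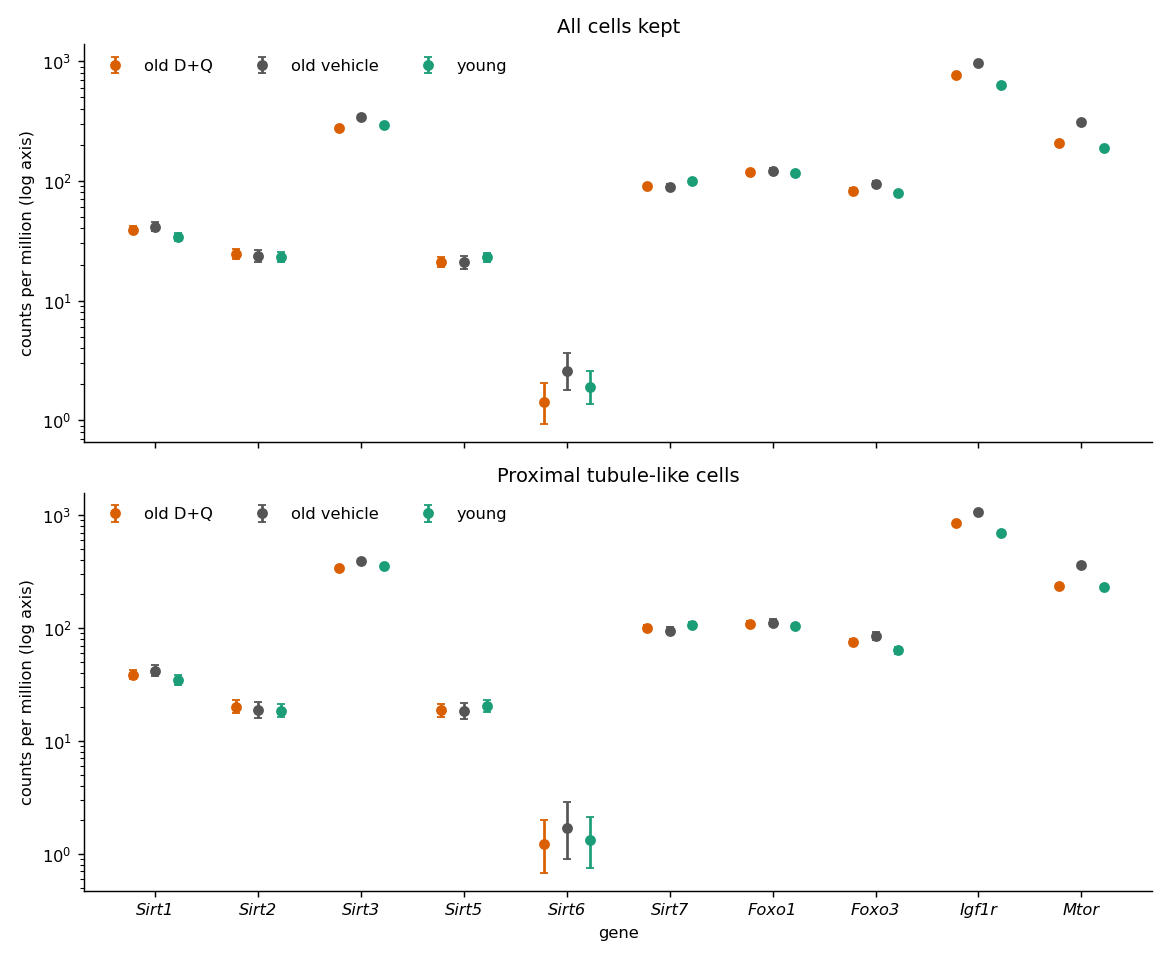
Level of each gene in CPM on a log axis, in all cells kept (top) and in proximal tubule-like cells (bottom), for the old D+Q, old vehicle and young libraries. Points are library values and bars 95% Poisson intervals; Igf1r and Mtor are highest in old vehicle, and Sirt6 has wide bars on 27 to 41 counts.

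A log2 ratio past 1.5-fold was used as a size rule. In old vehicle over young, 2 of the 10 genes were past it upwards (Igf1r and Mtor) and 0 downwards, against 6.83% and 8.37% of the 17499 genes measured in all cells. The median ratio of the 10 was 0.25 against 0.02 over all genes, and 8 of the 10 lay above 0. For old D+Q over old vehicle, 0 genes were past it upwards and 2 downwards (Mtor and Sirt6), against 4.74% and 6.2% of all genes, with medians of −0.13 and −0.06. None (0) of the genes was past it in old D+Q over young in either direction, against 4.18% upwards and 7.51% downwards, with medians of 0.04 and −0.03. The comparisons share libraries, so a gene high in old vehicle alone moves up in one and down in another.

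**Figure D2:**
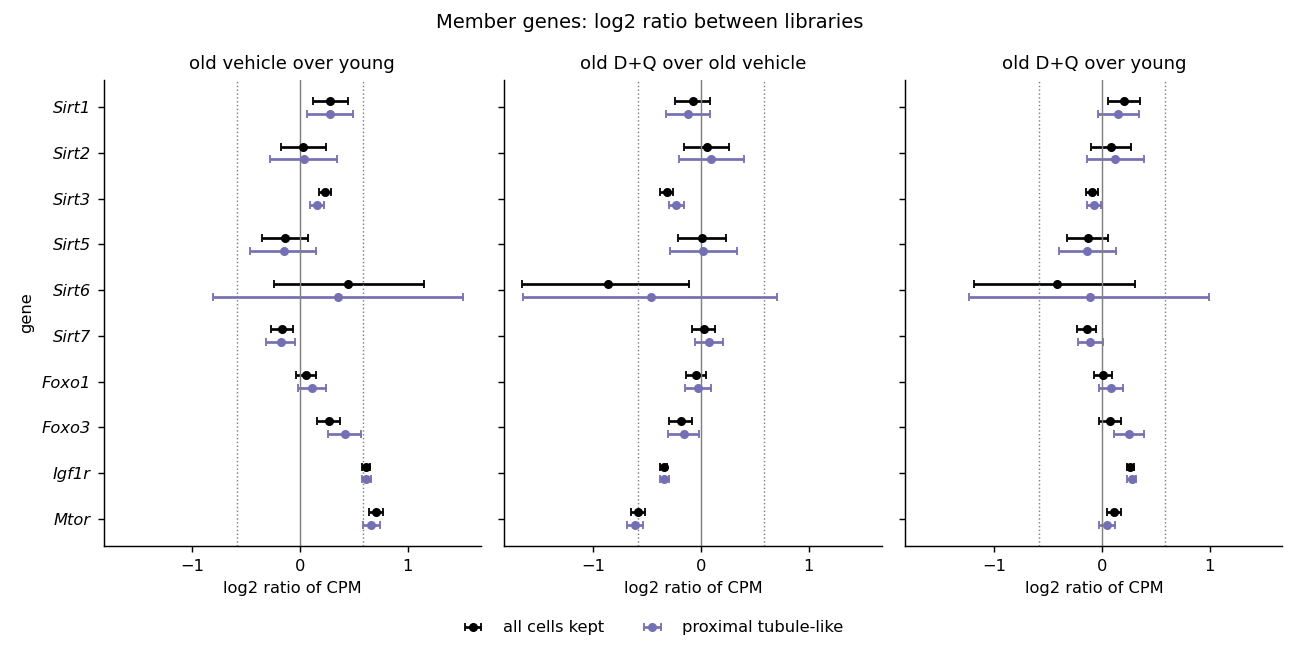
Log2 ratio of CPM for each gene in the 3 comparisons, in all cells kept (black) and proximal tubule-like cells (purple), with 95% conditional binomial intervals and dotted lines at 1.5-fold. Igf1r and Mtor lie at or beyond the upper line in old vehicle over young, and Mtor at the lower line in old D+Q over old vehicle.

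Proximal tubule-like cells were taken by themselves, since a change in the mix of cells could move the values over all cells. Igf1r was at 850 CPM in old D+Q, 1075 CPM in old vehicle and 702 CPM in young cells of this class, and Mtor at 238 CPM in old D+Q, 364 CPM in old vehicle and 230 CPM in young. Old vehicle over young gave 0.61 (0.57 to 0.66) for Igf1r and 0.66 (0.59 to 0.74) for Mtor. Old D+Q over old vehicle gave −0.34 (−0.38 to −0.30) for Igf1r and −0.61 (−0.69 to −0.54) for Mtor. Mtor in old D+Q could not be told from young, with 0.05 (−0.03 to 0.12), whereas Igf1r stayed above it, with 0.27 (0.23 to 0.32).

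Foxo3 had the same order in this class as over all cells, at 75.8 CPM in old D+Q, 84.9 CPM in old vehicle and 63.7 CPM in young cells. Its ratios over young were 0.25 (0.11 to 0.39) for old D+Q and 0.41 (0.26 to 0.57) for old vehicle, and old D+Q over old vehicle gave −0.16 (−0.31 to −0.02). Sirt3 was at 338, 396 and 355 CPM in old D+Q, old vehicle and young, with −0.23 (−0.30 to −0.16) for old D+Q over old vehicle and 0.15 (0.09 to 0.22) for old vehicle over young. Sirt1 was at 38.6 CPM in old D+Q, 42.0 CPM in old vehicle and 34.8 CPM in young, and only its old vehicle over young interval, 0.06 to 0.49, lay away from 0. Sirt7 was at 99.7 CPM in old D+Q, 94.8 CPM in old vehicle and 107 CPM in young, with −0.18 (−0.31 to −0.05) for old vehicle over young. Foxo1, Sirt2, Sirt5 and Sirt6 had intervals that included 0 in all 3 comparisons, and Sirt6 rested on 15 counts in old D+Q, 13 in old vehicle and 16 in young.

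By the size rule, 2 of the 10 genes were higher (Igf1r and Mtor) and 0 lower in proximal tubule-like cells of old vehicle over young, against 7.52% and 8.56% of 14574 genes measured. Of the same 10, 0 were higher and 1 lower (Mtor) in old D+Q over old vehicle, against 5.41% and 5.45%. Mtor was not past it under any of the 4 other scalings, at −0.58 to −0.54, or with a mitochondrial limit of 25%, at −0.58. None (0) was past it in old D+Q over young, against 5.2% higher and 6.89% lower. Both Igf1r and Mtor lie close to the threshold, so their count moved with the scaling: with totals taken without mitochondrial genes and Malat1, chosen after the data were seen, 0 of the 10 were past it in old vehicle over young. The median over all genes was −0.07 under that scaling, against 0.03. The share of all genes past the rule under it is not given here, so this count is not read as a result about the 10 genes.

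The class is made of 6 clusters with at least 50 cells in every library and a smaller cluster, 21. Cluster 21 held 13 old D+Q, 53 old vehicle and 17 young cells and is not described by itself. The old and young libraries differed in which cluster was the largest. Cluster 1 held 1714 of 5013 old D+Q, 1496 of 3834 old vehicle and 370 of 4821 young cells, and cluster 2 held 248 old D+Q, 51 old vehicle and 1347 young cells. Of the 6 larger clusters, cluster 16 was highest in Slc5a12 (6966 CPM over the libraries), a lactate transporter of the early proximal tubule. Cluster 8 was highest among them in Cyp7b1 (2483 CPM) and Slc7a13 (3263 CPM), which mark the late part of the tubule. Cluster 3 had a median of 38.7% mitochondrial counts. Levels within clusters are therefore given beside those of the class.

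Among the 6 clusters with at least 50 cells in every library, Mtor was highest in cluster 8, at 443 CPM in old D+Q, 644 CPM in old vehicle and 460 CPM in young cells. In cluster 16 it was at 150 (old D+Q), 174 (old vehicle) and 104 CPM (young), and in cluster 0, with Slc5a12 at 2828 CPM, at 177 CPM in old D+Q, 268 CPM in old vehicle and 160 CPM in young. Within each of clusters 0, 1, 8 and 16, old vehicle was above young, with log2 ratios of 0.74 (0.47 to 1.01), 0.68 (0.47 to 0.89), 0.49 (0.37 to 0.60) and 0.74 (0.49 to 0.99). In cluster 2 it was 0.55 with an interval that reached −0.01, on 32 vehicle counts.

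The log2 ratio of Mtor in old D+Q over old vehicle took different values among the clusters. It was −0.54 (−0.67 to −0.41) in cluster 8, where old D+Q over young was −0.05 (−0.18 to 0.07). In cluster 16 it was −0.22 (−0.44 to 0.01), and old D+Q stayed above young, with 0.52 (0.30 to 0.75). Cluster 3, of high mitochondrial content, showed low levels of 86.9, 65.1 and 62.9 CPM in old D+Q, old vehicle and young and a ratio in the other direction, 0.41 (−0.23 to 1.11). The difference between clusters was not tested.

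Igf1r was above young in old vehicle in all 6 clusters of at least 50 cells per library, with log2 ratios of 0.42 to 0.66 and no interval reaching 0. The highest levels were in cluster 8, at 1021 CPM in old D+Q, 1284 CPM in old vehicle and 811 CPM in young, and in cluster 16, at 1081 CPM in old D+Q, 1185 CPM in old vehicle and 791 CPM in young. Values of old D+Q over old vehicle ran from −0.40 in clusters 1 and 2 to −0.13 in cluster 16.

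**Figure D3:**
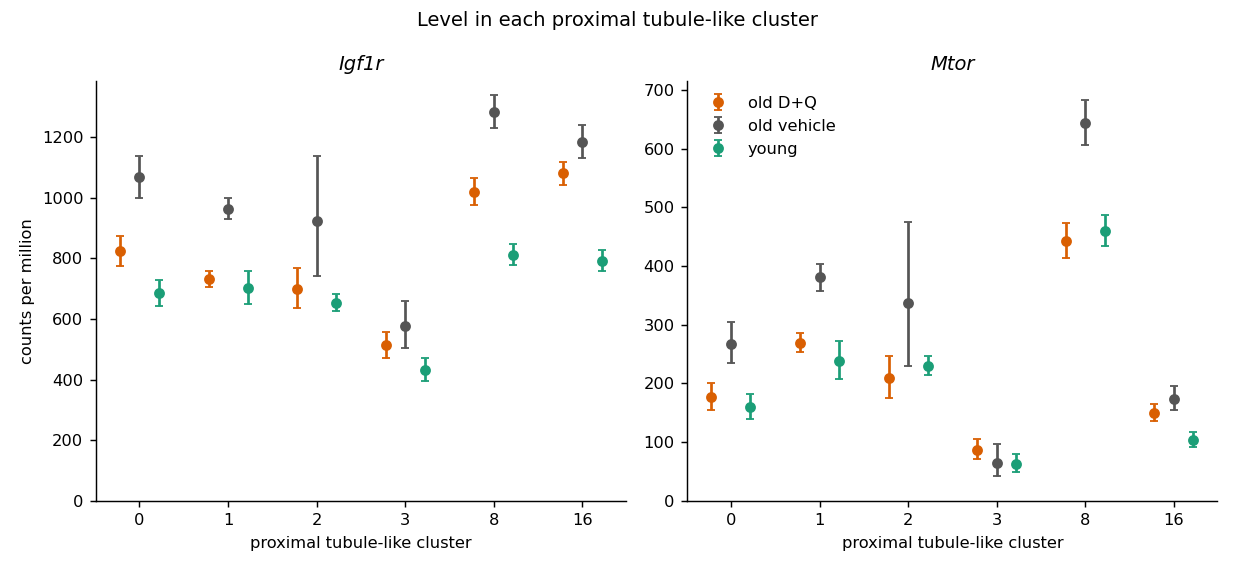
Level of Igf1r and Mtor in CPM in the 6 proximal tubule-like clusters with at least 50 cells in each library; points are the old D+Q, old vehicle and young libraries and bars 95% Poisson intervals. Old vehicle is highest in each cluster except for Mtor in cluster 3, and Mtor is highest in cluster 8.

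Foxo3 had another pattern among the clusters. It was highest in cluster 16, at 125 CPM in old D+Q, 140 CPM in old vehicle and 97.9 CPM in young cells, and 64.5 (old D+Q), 75.5 (old vehicle) and 51.1 CPM (young) in cluster 8. Old vehicle over young was 0.51 (0.25 to 0.78) in cluster 16 and 0.56 (0.20 to 0.92) in cluster 8, but 0.05 (−0.45 to 0.53) in cluster 0 and −0.08 (−0.48 to 0.32) in cluster 1. Sirt7 was lowest in cluster 16 among clusters 0, 1, 2, 8 and 16, at 73.9, 57.7 and 81.2 CPM in old D+Q, old vehicle and young, and Sirt3 was at 309, 352 and 369 CPM there. In cluster 3, of high mitochondrial content, Sirt3 was low, at 46.1 CPM in old D+Q, 65.1 CPM in old vehicle and 37.2 CPM in young, and Malat1 too, at 7488 CPM in old D+Q, 8687 CPM in old vehicle and 12752 CPM in young.

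Long genes were higher in the old vehicle library as a group, and Igf1r and Mtor are long. Their annotated spans are 281 kb and 109 kb, against 94.9 kb for Foxo3, 81.8 kb for Foxo1 and 6.01 to 29.8 kb for the sirtuins. In proximal tubule-like cells, the median log2 ratio of old vehicle over young was −0.18 for 3238 genes under 10 kb and 0.29 for 1538 genes of 100 to 300 kb, of which 14.6% were past 1.5-fold upwards. For old D+Q over old vehicle the same medians were 0.08 and −0.20, with 8.0% of the longer genes past it downwards. Igf1r and Mtor lay above the upper quartile of their span group, 0.46, in old vehicle over young. Below 0, in old D+Q over old vehicle, Mtor lay under the lower quartile, −0.34, and Igf1r (−0.34) next to it. Spans were at hand for 92.5% of measured genes. The part of span in the values of Igf1r and Mtor was not tested.

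**Figure D4:**
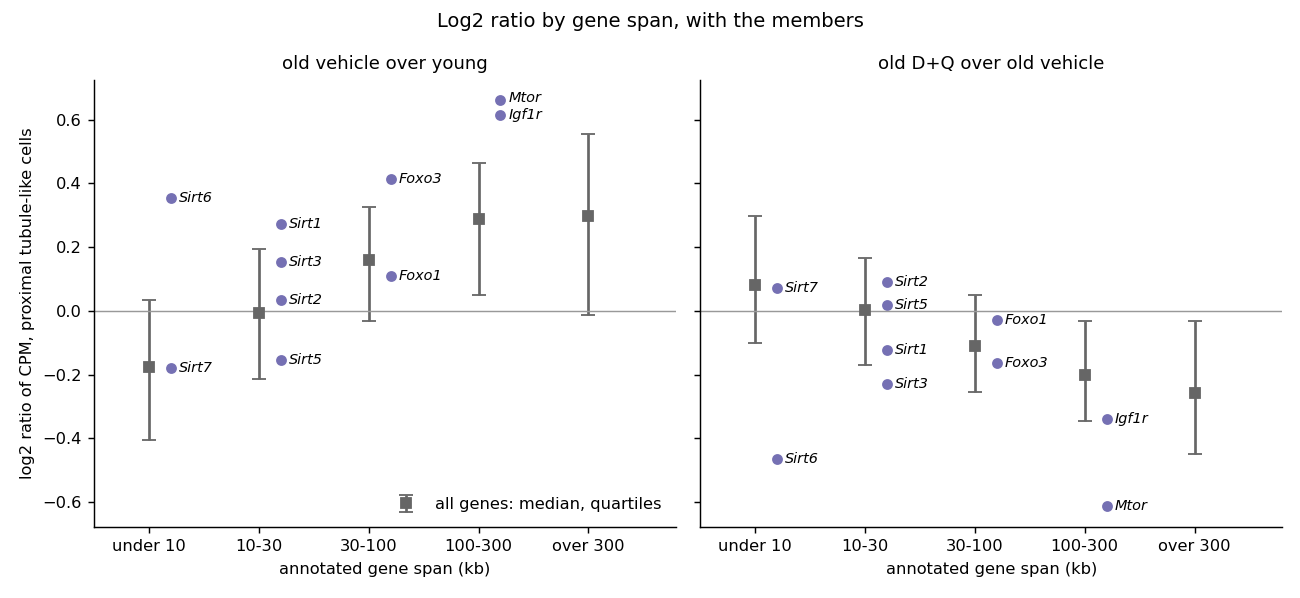
Log2 ratio in proximal tubule-like cells by annotated gene span in kb, for old vehicle over young (left) and old D+Q over old vehicle (right). Squares with bars are the median and quartiles of all measured genes in the span group, from −0.18 under 10 kb to 0.30 over 300 kb on the left, and purple points are the 10 genes, with Mtor and Igf1r above the quartiles of their group on the left.

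Outside the proximal tubule, the classes compared were endothelial-like, thick ascending limb-like, distal convoluted tubule-like, and connecting tubule or principal cell-like cells, with 81 to 554 cells per library. Their own markers were all detected and higher than in other cells, but proximal tubule transcripts were counted in them too. The phosphate transporter Slc34a1 reached 27.4% to 81.9% of its proximal tubule-like level, and in 3 of the 4 classes it was highest in old vehicle. In endothelial-like cells it was at 3015 CPM in old D+Q, 4692 CPM in old vehicle and 3424 CPM in young. The median share of the 15 proximal tubule markers, 38.7% to 76.0%, served as the limit. A gene at or below it in the same class and library is not read as expressed by these cells. The Slc34a1 share was above this median in some cases.

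Mtor was below its proximal tubule-like level in every other class and library, at 29.3% to 79.6% of it, and above the median share of the 15 proximal tubule markers in 6 of 12 cases. In endothelial-like cells it was at 161 CPM in old D+Q, 290 CPM in old vehicle and 158 CPM in young, and in distal convoluted tubule-like cells at 69.7 CPM in old D+Q, 181 CPM in old vehicle and 82.5 CPM in young. Old vehicle was highest in both classes, as it was for Slc34a1. In old vehicle endothelial-like cells the Mtor share was 79.6%, against 76.0% for the marker median and 81.9% for Slc34a1. Mtor was at 133 (old D+Q), 186 (old vehicle) and 94.0 CPM (young) in thick ascending limb-like cells and at 107 (old D+Q), 115 (old vehicle) and 149 CPM (young), with overlapping intervals, in connecting tubule or principal cell-like cells.

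Igf1r was highest in proximal tubule-like cells in each library too, but reached 46.5% to 87.6% of that level elsewhere and exceeded the median share of the proximal tubule markers in 12 of 12 cases. It was at 672 CPM in old D+Q, 942 CPM in old vehicle and 585 CPM in young endothelial-like cells, and at 611 (old D+Q), 835 (old vehicle) and 545 CPM (young) in thick ascending limb-like cells. Distal convoluted tubule-like cells held 428 CPM in old D+Q, 697 CPM in old vehicle and 343 CPM in young, where the log2 ratio was 1.02 (0.75 to 1.30) for old vehicle over young and −0.70 (−0.98 to −0.43) for old D+Q over old vehicle. In connecting tubule or principal cell-like cells it was at 395 CPM in old D+Q, 560 CPM in old vehicle and 495 CPM in young. In old vehicle distal convoluted tubule-like cells the Igf1r share was 64.9%, against 63.5% for the marker median and 65.1% for Slc34a1. The part of proximal tubule RNA in the differences of Igf1r was not tested.

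**Figure D5:**
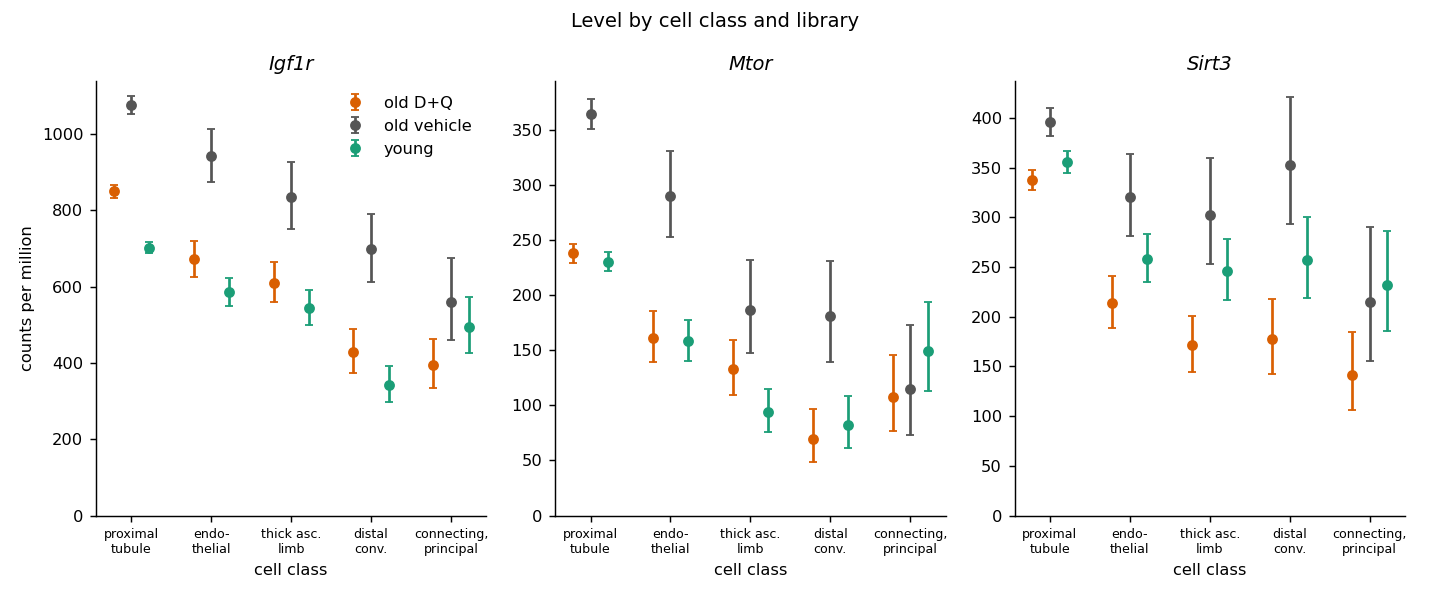
Level of Igf1r, Mtor and Sirt3 in CPM in the 5 compared cell classes; points are the old D+Q, old vehicle and young libraries and bars 95% Poisson intervals. Proximal tubule-like cells are highest for each gene and library, though Sirt3 in old vehicle overlaps distal convoluted tubule-like cells.

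Foxo1 was highest in endothelial-like cells in each library. Endothelial-like cells held 196 CPM in old D+Q (172 to 223), 167 CPM in old vehicle (139 to 198) and 178 CPM in young (159 to 199). Each was above the level of every other compared class, and the interval did not overlap that of the next, proximal tubule-like cells at 110 CPM in old D+Q, 112 CPM in old vehicle and 104 CPM in young. FOXO1 is known to restrain growth and metabolism of endothelial cells. The 3 endothelial intervals overlapped, so no difference between the libraries was detectable at this depth. In thick ascending limb-like cells Foxo1 was at 78.2 CPM in old D+Q, 93.1 CPM in old vehicle and 58.1 CPM in young, with 0.67 (0.06 to 1.28) for old vehicle over young.

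Foxo3 was lowest in proximal tubule-like cells in old vehicle and young, and above its proximal tubule-like level in 11 of 12 other class and library cases. Endothelial-like cells held 100 CPM in old D+Q, 134 CPM in old vehicle and 82.7 CPM in young, with 0.69 (0.31 to 1.07) for old vehicle over young. Thick ascending limb-like cells had another order, with 78.2 CPM in old D+Q, 100 CPM in old vehicle and 110 CPM in young.

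Among the sirtuins, Sirt2 and Sirt5 also lay above their proximal tubule-like levels in most cases, 10 and 11 of 12. Sirt2 was highest in endothelial-like cells in each library, at 36.4 CPM in old D+Q, 35.7 CPM in old vehicle and 31.7 CPM in young, on 27 to 56 counts and with intervals that overlapped the next class. Sirt5 was at 51.8 CPM in old D+Q, 28.7 CPM in old vehicle and 60.3 CPM in young distal convoluted tubule-like cells. The young value there rested on 38 counts and the vehicle value on 10, a log2 ratio of −1.05 (−2.24 to −0.04) for old vehicle over young.

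Sirt3 was the sirtuin with the clearest place in the proximal tubule, at or under 89.2% of that level in every other class. It was at 213, 320 and 258 CPM in old D+Q, old vehicle and young endothelial-like cells, and at 177 (old D+Q), 353 (old vehicle) and 257 CPM (young) in distal convoluted tubule-like cells. Old D+Q over old vehicle gave −0.99 (−1.40 to −0.59) in distal convoluted tubule-like and −0.82 (−1.17 to −0.47) in thick ascending limb-like cells. Old vehicle was highest here too, as for Slc34a1, and the part of proximal tubule RNA was not tested. In old vehicle endothelial-like cells the Sirt3 share was 80.9%, against 76.0% for the marker median and 81.9% for Slc34a1. Sirt1 in endothelial-like cells was at 53.8 CPM in old D+Q, 54.2 CPM in old vehicle and 38.0 CPM in young, with overlapping intervals. Sirt6 had 0 to 5 counts per library in each of these 4 classes and was not measured there.

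By the 1.5-fold rule, larger shares of all genes were past it in these smaller classes than in the proximal tubule. In endothelial-like cells, 3 of 9 measured genes were higher and 0 lower in old vehicle over young (Foxo3, Igf1r and Mtor), against 10.2% and 11.3% of all genes. There, 0 were higher and 1 lower (Mtor) in old D+Q over old vehicle, against 12.8% and 11.3%. In thick ascending limb-like cells, 3 of 9 were higher and 0 lower in old vehicle over young (Foxo1, Igf1r and Mtor), against 16.5% and 9.69%. Mtor was below the median marker share there in old vehicle and young. For old D+Q over old vehicle, 1 was higher (Sirt5) and 2 lower (Sirt3 and Sirt7), against 11.6% and 16.1%. In this class Sirt5 rested on 31 and 9 counts, and the intervals of Sirt5 and Sirt7 included 0. Sirt3 lay below the median marker share there in old D+Q, at 50.7% against 53.2%.

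Distal convoluted tubule-like cells had 3 of 8 measured genes higher (Sirt2, Igf1r and Mtor) and 1 lower (Sirt5) in old vehicle over young, against 18.7% and 10.0% of all genes. Sirt2 there rested on 7 counts in old vehicle and 8 in young, with an interval of −1.03 to 2.32. Mtor lay below the median share of the proximal tubule markers in all 3 libraries of this class, so its values there are not read as a change in these cells. The same cells had 2 higher (Sirt2 and Sirt5) and 3 lower (Sirt3, Igf1r and Mtor) in old D+Q over old vehicle, against 11.7% and 18.9%. In connecting tubule or principal cell-like cells, 1 of 6 measured genes was higher (Foxo1) and 0 lower in old vehicle over young, against 14.1% and 16.0%. Foxo1 there rested on 21 counts in old vehicle and 18 in young. In young it lay below the median marker share, at 46.3% against 64.3%, so this value is not read as a change in these cells. Of the same 6, 0 were higher and 3 lower (Sirt3, Sirt7 and Foxo1) in old D+Q over old vehicle, against 13.3% and 14.2%. All 3 of those intervals included 0, and so did those of Sirt2 and Sirt5 in old D+Q over old vehicle of distal convoluted tubule-like cells.

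In old D+Q over young, 0 genes were past 1.5-fold in endothelial-like and thick ascending limb-like cells, against 7.52% higher and 7.73% lower of all genes in endothelial-like and 8.42% higher and 7.42% lower in thick ascending limb-like cells. Distal convoluted tubule-like cells had 1 higher (Sirt2) and 0 lower, against 10.9% and 9.64%, and Sirt2, on 17 counts in old D+Q and 8 in young, was at 1.35 (0.12 to 2.83). Connecting tubule or principal cell-like cells had 0 higher and 2 lower, against 13.1% and 16.8%. These were Sirt3, at −0.71 (−1.23 to −0.21), and Sirt7, at −0.91 (−1.91 to −0.01) on 16 counts in old D+Q and 30 in young. Median mitochondrial shares in connecting tubule or principal cell-like cells were 14.2% in old D+Q, 17.5% in old vehicle and 7.27% in young.

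The genes whose levels ran most like each gene were sought over the 15 sums of 5 classes and 3 libraries, among 7185 genes, by Pearson r on log2(CPM + 1). The sums share libraries and proximal tubule RNA, so the values are descriptions. Nearest to Mtor were Fhl1, the phosphate transporter family gene Slc17a3 and the potassium channel Kcnk5, at 0.97, 0.97 and 0.96. Those nearest to Igf1r were the chromatin remodeller Smarca2, Trps1 and Inpp5f, at 0.96, 0.96 and 0.95. For Foxo1 they were Grb10, Map4k2 and Pdia5, at 0.96, 0.94 and 0.94, and Grb10 encodes an adaptor of the insulin and IGF1 receptors. Sirt3 ran with Cpeb3 (0.95), Rbm47 (0.94) and Upb1 (0.93), and Sirt7 with the peroxisomal protease Lonp2 (0.94), the peroxisomal membrane gene Pxmp2 (0.93) and Ido2 (0.92). Nearest genes were looser for Foxo3 (Msi2, Smarcad1 and Rmnd1, all 0.82) and Sirt2 (Dyrk1a, Ccnc and Herc6, 0.87, 0.86 and 0.85). Sirt1 ran with Dgkd, Sec23b and Zc3h12c (0.92, 0.91 and 0.91), and Sirt5 with Smim13, Cep57 and Atg4d (0.89, 0.89 and 0.87).

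Other genes of the pathways were counted in proximal tubule-like cells. Among 34 FOXO target genes, 1 was past 1.5-fold upwards and 8 downwards (23.5%, against 8.56% of all genes) in old vehicle over young, with a median log2 ratio of −0.07 against 0.03 over all genes. Against young, old D+Q had 0 higher and 8 lower, against 5.2% and 6.89% of all genes, and the median was −0.11 against 0.00. The 2 comparisons share the young library. Between the old libraries, D+Q over vehicle, 1 was higher (Pdk4) and 0 lower, against 5.41% and 5.45% of all genes, with medians of 0.00 and −0.04.

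Pdk4, which restrains pyruvate oxidation, was at 11.5 CPM in old D+Q, 6.01 CPM in old vehicle and 40.9 CPM in young cells. Its log2 ratio was 0.93 (0.45 to 1.45) for old D+Q over old vehicle. Igfbp1, a secreted IGF-binding protein, was at 6.0 CPM in old D+Q, 4.18 CPM in old vehicle and 12.9 CPM in young, with −1.62 (−2.22 to −1.07) for old vehicle over young. Against these, Gadd45a, a stress gene, was at 16.9 CPM in old D+Q, 22.7 CPM in old vehicle and 14.8 CPM in young cells.

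The 6 others past 1.5-fold downwards against young in both old libraries were named after their values were seen. Pck1, the rate-limiting enzyme of gluconeogenesis, was at 797 CPM in old D+Q, 699 CPM in old vehicle and 1338 CPM in young cells. Txnip was at 53.0 CPM in old D+Q, 45.0 CPM in old vehicle and 109 CPM in young, and Cited2 at 55.6 CPM in old D+Q, 50.4 CPM in old vehicle and 104 CPM in young. The insulin receptor substrate Irs2 was at 24.3 CPM in old D+Q, 23.5 CPM in old vehicle and 38.8 CPM in young. Ccnd2 and Bbc3 were sparse, at 1.70 and 0.914 CPM in old vehicle, and the intervals of Bbc3 included 0. G6pc, another gluconeogenesis gene, was at 467 CPM in old D+Q, 371 CPM in old vehicle and 498 CPM in young, and Bcl6 at 50.6 CPM in old D+Q, 75.6 CPM in old vehicle and 54.5 CPM in young, with −0.58 (−0.74 to −0.41) for old D+Q over old vehicle.

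The mTOR list had 1 of 41 genes higher and 0 lower in old vehicle over young, against 7.52% and 8.56% of all genes, and a median of −0.05 against 0.03. The gene was Tfeb, a transcription factor of lysosome genes that mTOR complex 1 holds in the cytoplasm, at 17.5 CPM in old D+Q, 27.7 CPM in old vehicle and 16.7 CPM in young cells. Its log2 ratios were 0.73 (0.45 to 1.01) for old vehicle over young and −0.66 (−0.94 to −0.38) for old D+Q over old vehicle. Tti1, whose product stabilises mTOR, had the same order at 17.0 CPM in old D+Q, 24.5 CPM in old vehicle and 16.4 CPM in young, as did the mTOR complex 2 subunit Rictor at 87.0 CPM in old D+Q, 116 CPM in old vehicle and 82.4 CPM in young. In old D+Q over old vehicle 1 of the 41 was higher (Telo2) and 1 lower (Tfeb), against 5.41% and 5.45% of all genes. Telo2 was at 0.61 (0.03 to 1.24). In old D+Q over young 0 were higher and 2 lower, against 5.2% and 6.89%. These 2 were Ddit4, at −0.93 (−1.29 to −0.58), and Rragb, whose interval included 0.

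In the PI3K and AKT list, 0 of 16 genes were higher and 1 lower in old vehicle over young, against the same 7.52% and 8.56%, with a median of 0.23. That was Sgk1, a hormone-induced kinase that phosphorylates FOXO3, at 108 CPM in old D+Q, 38.0 CPM in old vehicle and 74.1 CPM in young cells. Its log2 ratio was 1.51 (1.33 to 1.70) for old D+Q over old vehicle and −0.96 (−1.16 to −0.77) for old vehicle over young.

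Insulin and IGF genes had 14 of 15 measured, with 1 higher (Igfbp6) and 4 lower (Igfbp1, Igfbp2, Igfbp3 and Irs2) in old vehicle over young, against 7.52% and 8.56% of all genes, and a median of −0.06. Igfbp2 and Igfbp6 had under 4 CPM in each library. Igfbp3 was at 31.4, 21.8 and 34.4 CPM in old D+Q, old vehicle and young, and Igfbp4 at 349.9, 259 and 251 CPM. In old D+Q over old vehicle 1 was higher (Igfbp2) and 1 lower (Igfbp6). These shares of 7.14% each were near the 5.41% and 5.45% of all genes. In old D+Q over young 0 genes were higher and 3 lower (Igfbp1, Igfbp2 and Irs2), against 5.2% and 6.89% of all genes. Grb10 was at 66.0 CPM in old D+Q, 78.5 CPM in old vehicle and 67.9 CPM in young.

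NAD genes, which make or use the sirtuin cofactor, had 2 of 20 measured genes higher and 2 lower in old vehicle over young. These shares of 10.0% each were near the 7.52% and 8.56% of all genes, and the median was 0.14 against 0.03. Kynu, of the pathway that makes NAD from tryptophan, was at 50.3 CPM in old D+Q, 55.1 CPM in old vehicle and 33.1 CPM in young cells. Nmnat3, which makes NAD in mitochondria, was at 74.5 CPM in old D+Q, 95.04 CPM in old vehicle and 63.3 CPM in young, and Nampt, the salvage enzyme, at 123 CPM in old D+Q, 128 CPM in old vehicle and 98.1 CPM in young. The 2 lower genes, Bst1 and Nmnat2, were under 3 CPM in each library. By the same rule, old D+Q over old vehicle had 0 higher and 1 lower, against 5.41% and 5.45% of all genes. The lower gene was Bst1, with an interval that included 0. Old D+Q over young had 1 higher (Kynu) and 2 lower (Bst1 and Nmnat2), against 5.2% and 6.89%.

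Of 14 nuclear partners and substrates of the sirtuins, 1 was higher and 0 lower in old vehicle over young (7.14% and 0, against 7.52% and 8.56% of all genes), with a median of 0.21. This was the clock gene Per2, at 109 CPM in old D+Q, 102 CPM in old vehicle and 64.9 CPM in young cells. Per2 was also the 1 gene past 1.5-fold in old D+Q over young, at 0.75 (0.62 to 0.88), against 5.2% higher and 6.89% lower of all genes. Of 15 measured mitochondrial substrates, 0 were higher and 1 lower in old vehicle over young (median −0.07), against 7.52% and 8.56% of all genes. Aldh2, a mitochondrial aldehyde dehydrogenase, was at 186 CPM in old D+Q, 161 CPM in old vehicle and 116 CPM in young, with 0.67 (0.58 to 0.77) for old D+Q over young. Of both lists, 0 genes were past 1.5-fold in old D+Q over old vehicle, against 5.41% higher and 5.45% lower of all genes.

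AMPK genes, 10 measured, had 0 past 1.5-fold in each of the 3 comparisons, with a median of 0.07 in old vehicle over young. Over all genes, 5.2% to 7.52% were higher and 5.45% to 8.56% lower in these comparisons. Prkag2 was at 105 CPM in old D+Q, 126 CPM in old vehicle and 91.4 CPM in young cells, and Prkaa1 at 13.0 CPM in old D+Q, 18.3 CPM in old vehicle and 14.0 CPM in young. Of the sirtuin and FOXO genes outside the 10, Sirt4 and Foxo4 were measured in proximal tubule-like cells, 0 were past 1.5-fold in any comparison, and Foxo6 was not measured.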

How the data were processed

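The authors deposited whole-number UMI counts for every gene in every barcode, with no normalisation. Per the submitters' processing notes, builds GRCm39 and mm10 were used in roles not stated; the sources used here do not name the aligner. Barcodes with over 50% mitochondrial counts (149 old D+Q, 82 old vehicle and 385 young) were left out. Scrublet's automatic calls, 1, 0 and 2 barcodes, were under 0.5% and taken as not having worked, so barcodes above the score quantile of 0.8% per 1000 barcodes were left out (464, 244 and 496). Cells were clustered together, without batch integration, on 2000 variable genes, 30 components, 15 neighbours and resolution 1, keeping the 10 genes and the pathway lists out of the variable genes, which gave 25 clusters. To be named, a cluster needed 3 markers of the class, each with 10 counts or more and no less than 0.25 of its level in the best cluster. Rival classes had to score under 0.75 of its own score, and its 10 leading genes could not favour another class. Outside the proximal tubule, a cluster with 0 of its markers among those genes and a score under 0.9 stayed unnamed. These thresholds were set after the data were seen, and 14.5%, 18.8% and 14.8% of old D+Q, old vehicle and young cells stayed unnamed. Since names were rebuilt here, differences from the cell types of the study can stem from them. Classes of at least 50 cells in each library were compared.

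Per class and library, counts were added up and divided by their total (CPM, exact Poisson intervals). Log2 ratios used a prior of 0.5 counts per library on average, split by library totals, with exact conditional binomial intervals at 95%, tested on simulated data. UMIs are counted molecules, and intervals cover counting error only. A gene was measured with 30 counts over the 3 libraries in the class. The 10 genes and the lists were chosen with earlier results of these data known. From each list the 2 highest and 2 lowest ratios per comparison with an interval excluding 0 could be named, and of the nearest genes 3 for each gene with 300 counts, among those with 1000. Some members of the lists are not reported here by name. The symbol Nnt has 2 identifiers and was left out of the NAD list. Promoter windows and gene spans came from RefSeq, and overlapping genes from GENCODE. Tools were Python 3.11.15, scanpy 1.11.5, scipy 1.17.1, numpy 2.4.6, pandas 2.3.3, igraph 0.11.9 and matplotlib 3.10.9, and R 4.3.3 with edgeR 4.0.16 for the TMM alternative.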

Additional observations from a re-analysis of the deposited data

How the results depend on the processing

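No paired analysis was possible because each group had 1 library. Of 2112 recomputed log2 ratios of the 10 genes, 1932 stayed within the counting interval of the first, 177 moved outside it and 3 reversed. Only a ratio first past 1.5-fold could be called reversed, so sign changes of smaller ratios are among the others. Foxo1 in proximal tubule-like cells, 0.11 for old vehicle over young, kept its sign in 18 of 20 alternatives but was −1.10 in cluster 2 alone. In all cells, Mtor in old vehicle over young ran from 0.61 to 0.77 over 10 alternatives, all past 1.5-fold, and Igf1r from 0.52 to 0.64, past it in 6. The count of the 10 genes past 1.5-fold in that comparison was 1 under TMM scaling, median-of-ratios scaling and totals without mitochondrial genes, with or without Malat1, and 0 at 2-fold. In old D+Q over old vehicle it was 1 under those 4 scalings, a mitochondrial limit of 25%, cells thinned to 1000 counts and clusters over 25% mitochondrial left out, and 0 at 2-fold; Mtor ran from −0.72 to −0.51. In proximal tubule-like cells, old vehicle over young had 1 under the first 3 scalings, under a marker gate per cell and in clusters 3 and 16 alone, and 0 at 2-fold and without mitochondrial genes and Malat1. Old D+Q over old vehicle had 0 under the 4 scalings, at 25%, at 2-fold and in clusters 1, 3, 8 and 16 alone, 2 in cluster 0 and 4 in cluster 2. Cluster 2 held only 51 old vehicle cells. Shares of all genes past the rule in these settings are not given here, so the counts are not read as results about the 10 genes. The median over the 10 genes for old D+Q over young there was −0.17 in cluster 2 and 0.31 in cluster 3. Reversed were Mtor in cluster 3 for old D+Q over old vehicle (0.41), Sirt5 in thick ascending limb-like cells for old D+Q over old vehicle when thinned (−0.21), and Sirt2 in distal convoluted tubule-like cells for old vehicle over young with no doublets left out (−0.12); the cause was not tested. The alternatives on totals without Malat1 and on clusters over 25% mitochondrial were chosen after the data were seen. Connecting tubule or principal cell-like cells were not named at a limit of 25% or with no doublets left out. The depth limits Sirt6 everywhere, and every gene outside Igf1r in the smaller classes.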
